A study of Homo sapiens with 6 samples.

Results

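The aminoacyl-tRNA synthetases were chosen by name, as 34 genes whose products attach amino acids to transfer RNAs, and were compared as 19 cytosolic and 15 mitochondrial enzymes. A gene was placed in the mitochondrial group when its symbol ends in 2, and older symbols without the final 1 were matched too. All 34 were found among the 61552 Ensembl identifiers that were counted. RNA was taken from the human cell line MDA-MB-231, an established model of triple-negative breast cancer, which had been kept for 24 h in DMSO vehicle or in 10 μM VNLG-152R. VNLG-152R is a retinamide studied as a degrader of the kinases MNK1 and MNK2, which phosphorylate the cap-binding translation factor eIF4E. Each group held 3 polyadenylated RNA libraries of this single line, and neither the labels nor the methods say whether they were separate cultures. The p-values therefore cover the spread among these libraries and no more, and that spread may be technical. The comparison asks how the transcripts that charge tRNA differed after 24 h with the compound.

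Each synthetase recognizes its tRNAs and joins them to the matching amino acid at the cost of ATP, the step that fixes the genetic code. The cytosol and the mitochondria hold mostly separate sets of these enzymes, all encoded in the nucleus, and the mitochondrial set serves the few proteins made inside the organelle. GARS1 and KARS1 each supply both compartments from a single gene, glutamine is attached in mitochondria by an indirect route through glutamyl-tRNA, and EPRS1 joins glutamyl and prolyl activity in a single cytosolic chain. Several cytosolic enzymes sit in a multi-synthetase complex held together by the scaffold proteins AIMP1, AIMP2 and EEF1E1, and many cytosolic synthetase genes are known targets of the amino acid response factor ATF4.

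Short stretches at or near a listed start of 6 members are shown here because they hold the letters of elements known from such promoters. The listed starts of HARS1 and HARS2 also lie head to head. They were read from RefSeq on GRCh38.p14, in windows from 250 bases before to 50 bases after each start, which were at hand for 30 of the 34 members. The first pair are on the plus strand, with capitals marking a match to TGATGNAAT, the composite element bound by C/EBP and ATF factors, which is found here on the opposite strand.
GARS1, chr7:30594834-30594863: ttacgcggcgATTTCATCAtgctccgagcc
TARS1, chr5:33440956-33440985: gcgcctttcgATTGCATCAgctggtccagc
RefSeq lists several starts for these genes, and the matches lie inside the genes as GENCODE draws them. The GARS1 match begins 34 bases before the start at 30594878 and at base 110 counted from the start at 30594735. The TARS1 match begins at base 2 counted from the start at 33440965 and at base 271 counted from the start at 33440696. These were the only 2 of 30 members with the letters, against 0.742% of the 11461 tested genes with a window and 0.991% of all 35116 windows, searched on both strands.

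The next stretches carry capitals where CCGGAAG, the core letters of sites bound by ETS family factors, occurs on either strand. The first is the whole of the 84 bases between the listed RefSeq starts of HARS1, read to the left, and HARS2, read to the right. As GENCODE draws the genes, HARS1 reaches to 140691862 and HARS2 begins at 140691426. By those bounds the stretch lies inside HARS1 and partly inside HARS2. SARS1 and MARS2 are examples picked from the 16 members with these letters. Both are on the lower side below at an unadjusted p under 0.05 in edgeR, as is GARS1, which has the letters too. FARSA on the lower side and NARS2 on the higher side also had such a p, and their windows lack the letters. As picked examples, SARS1 and MARS2 do not link the letters to a change.
HARS1 and HARS2, chr5:140691371-140691454: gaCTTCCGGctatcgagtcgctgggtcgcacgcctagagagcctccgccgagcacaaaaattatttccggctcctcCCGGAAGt
SARS1, chr1:109213808-109213857: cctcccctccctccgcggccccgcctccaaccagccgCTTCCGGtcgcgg
MARS2, chr2:197705294-197705343: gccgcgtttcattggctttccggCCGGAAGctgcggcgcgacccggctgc
These letters occurred in 16 of 30 members (53.3%), in 9 of 16 cytosolic and 7 of 14 mitochondrial ones, against 21.2% of tested genes with a window and 10.3% of all windows. HARS1 and HARS2 share their matches, a gene with several listed starts had several windows, and no match of either motif overlapped a match of the other. The 15 tested members with the ETS letters had a median log2 fold change of -0.12, and the 14 with a window and without the letters had -0.07. The ranges of the 2 sets, -0.24 to 0.10 and -0.24 to 0.19, overlapped. A match describes the sequence and does not show that a factor binds there.

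Counts assigned to genes totaled 60122936 to 68583224 in the vehicle controls and 69923839 to 82151816 with VNLG-152R and did not overlap between the groups. Levels are given as CPM, counts relative to library size after TMM normalization. The summed levels of the marker lists in this paragraph are CPM without TMM. Mesenchymal markers were high in the line, but not every luminal marker was low. VIM, the intermediate filament of mesenchymal cells, was at 3397 to 5166 CPM over the 6 libraries. The estrogen receptor gene ESR1 had 0 to 8 counts. The luminal keratin gene KRT18 was at 396 to 642 CPM and ERBB2 at 84.3 to 118 CPM over the 6 libraries. Of 5 mesenchymal markers none rose and 2 fell by the edgeR test described below, VIM (log2 fold change -0.39) and the caveolar protein CAV1 (-0.60), and their summed level was 7851 to 7974 CPM in controls and 5777 to 6797 CPM with VNLG-152R. The VIM call was lost in 5 of the 6 fits that left out a library, and its adjusted p in edgeR was largest with control replicate 3 left out, at 0.174. Of 7 luminal and receptor markers 6 were tested and 0 changed by edgeR, with 2 at an unadjusted p under 0.05, and the summed level was 698 to 761 CPM in controls and 513 to 651 CPM with VNLG-152R. Leukocyte markers summed to 2.19 to 3.48 CPM, with PTPRC at 1 to 2 counts and CD3E at 0 to 1, and CD14, the only 1 of the 5 that was tested, did not change. Of 4 endothelial markers 2 were tested. KDR, a receptor of vascular growth factor, rose (1.44, adjusted p = 1.05e-05 in edgeR). PECAM1, the other tested marker, was at 21.3 to 26.5 CPM over the 6 libraries and was not called (0.12, adjusted p = 0.454 in edgeR). CDH5 stayed at 3 to 10 counts and VWF at 0 to 13 counts. The summed level of the 4 went from 34.0 to 38.8 CPM in controls to 58.5 to 62.2 CPM with VNLG-152R. The part of these marker differences in the values below was not tested.

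No synthetase gene passed the test. The groups were compared by edgeR's quasi-likelihood test, with Benjamini-Hochberg adjustment over the 17084 genes that passed its filter on low counts and a threshold of 0.05. Of the 34 members 32 were tested, 18 cytosolic and 14 mitochondrial, and 0 were called in either direction, against 5.19% of all tested genes (3.76% higher and 1.43% lower). At an unadjusted p under 0.05 there were 5 of 32, against 22.6% of all tested genes. They were GARS1, FARSA, SARS1 and MARS2 on the lower side, where 9.76% of all tested genes lay, and NARS2 on the higher side, where 12.8% lay. DESeq2 and limma-voom also called 0 of the 32, with 4 and 5 at an unadjusted p under 0.05. The smallest adjusted p in edgeR was 0.152, for GARS1, and the largest was 0.983, for RARS2.

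The small differences lay mostly on the lower side. The fitted log2 fold change was negative for 26 of the 32 members (81.25%), against 50.4% of all tested genes. It was negative for 16 of 18 cytosolic and 10 of 14 mitochondrial members. The median was -0.13 over cytosolic and -0.08 over mitochondrial members, beside -0.002 over all tested genes. TMM normalization is meant to keep the bulk of genes level between libraries. Members ranged from -0.24 to 0.19. All 32 had a 95% interval that lay within a 1.5-fold change in either direction, as did 63.8% of all tested genes, and the outermost bounds over the members were -0.44 and 0.38 on the log2 scale. In bulk RNA, a smaller share of RNA from cells that express a gene and less of its RNA per cell cannot be told apart.

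**Figure D1:**
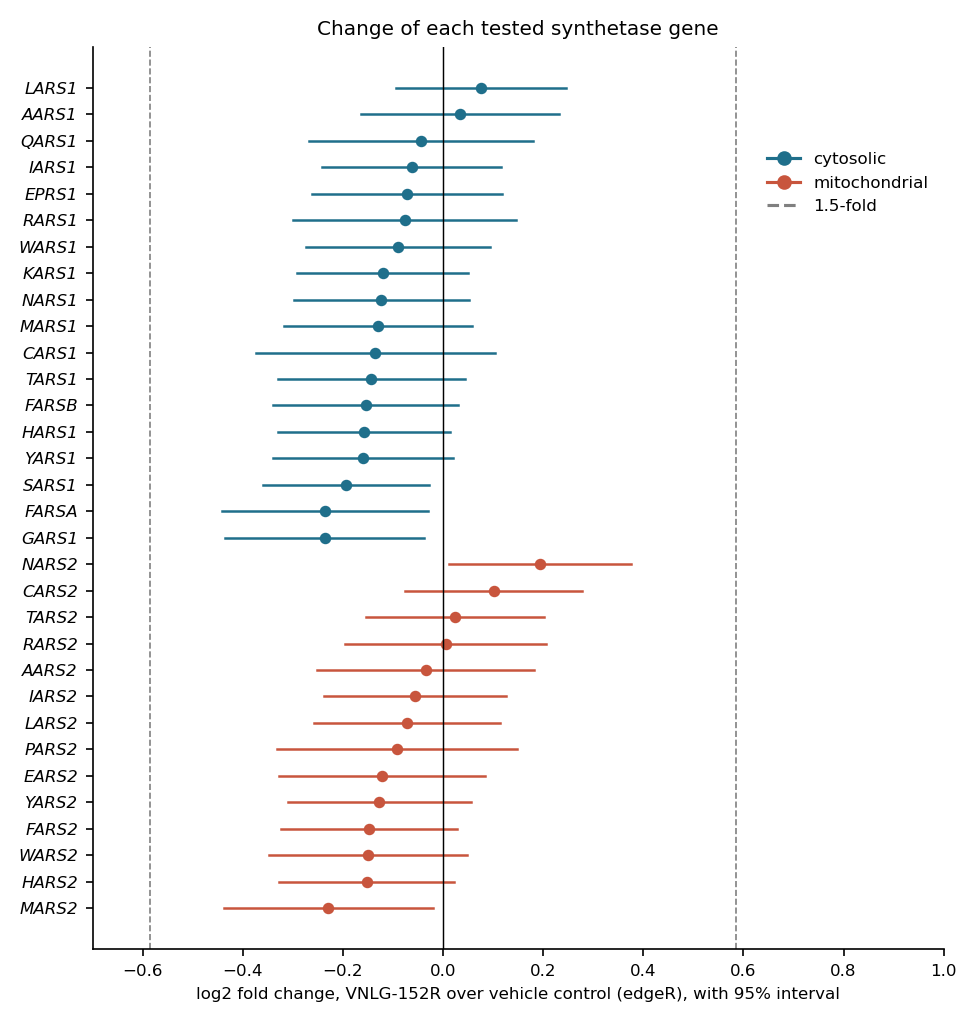
Fitted log2 fold change of VNLG-152R over vehicle control for the 18 cytosolic and 14 mitochondrial synthetase genes that were tested, as points with 95% intervals from edgeR (3 libraries per group). Every interval lies between the dashed lines at a 1.5-fold change, 26 of the 32 points lie below 0, and only NARS2 has an interval wholly above 0.

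The 3 cytosolic members furthest to the lower side were GARS1, FARSA and SARS1. GARS1, the glycyl-tRNA synthetase of both compartments (ENSG00000106105, chromosome 7, 30594681 to 30634033), was at 281, 261 and 246 CPM in the controls and at 235, 201 and 234 CPM with VNLG-152R. Every treated library was below every control, and VNLG-152R replicate 2 was the lowest. The fitted log2 fold change for GARS1 was -0.24 with a standard error of 0.092 (adjusted p = 0.152 in edgeR), a fold of 0.85 with a 95% interval of 0.74 to 0.97.

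FARSA, the catalytic subunit of cytosolic phenylalanyl-tRNA synthetase (chromosome 19, 12922479 to 12934037), was at 174, 168 and 181 CPM in the controls and at 168, 133 and 144 CPM with VNLG-152R. VNLG-152R replicate 1 was just under the lowest control, and the other two treated libraries were well below it. FARSA gave a log2 fold change of -0.24 ± 0.095 (SE, n = 3 per group) at an adjusted p of 0.165 in edgeR. Without VNLG-152R replicate 1 it was -0.33 with an adjusted p of 0.0408 in edgeR, the only fit of those run in which a member passed. FARSB, the partner subunit of the same enzyme, was at 59.96, 56.5 and 54.7 CPM and at 49.7, 48.9 and 55.1 CPM, and its log2 fold change was -0.15 at an adjusted p of 0.308 in edgeR, and its groups overlapped.

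SARS1, which charges serine and selenocysteine tRNAs (chromosome 1, 109213918 to 109238169), was at 286, 293 and 288 CPM in the controls and at 255, 256 and 247 CPM with VNLG-152R. Both groups were tight and did not overlap. SARS1 gave a log2 fold change of -0.19 ± 0.077 (SE, n = 3 per group) at an adjusted p of 0.158 in edgeR, and over the fits that each left out a library it stayed between -0.20 and -0.18.

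MARS2, the mitochondrial methionyl-tRNA synthetase (chromosome 2, 197705369 to 197708387), was the mitochondrial member furthest to the lower side. It was at 22.6, 22.9 and 24.5 CPM in the controls and at 21.7, 17.6 and 20.5 CPM with VNLG-152R. The treated libraries were all below the controls, with replicate 1 close to them and replicate 2 furthest away. For MARS2 the log2 fold change came to -0.23 (standard error 0.096, adjusted p = 0.1796 in edgeR), and without VNLG-152R replicate 2 it was -0.15. MARS1, its cytosolic counterpart, was at 349, 361 and 363 CPM in the controls and at 359, 308 and 314 CPM with VNLG-152R, so its groups overlapped (log2 fold change -0.13, adjusted p = 0.40 in edgeR), and 12.4% of its exon bases lie under the antisense genes ARHGAP9 and DDIT3.

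NARS2, the mitochondrial asparaginyl-tRNA synthetase (chromosome 11, 78435961 to 78574874), lay on the other side. It was at 22.6, 22.0 and 22.8 CPM in the controls and at 23.9, 27.1 and 26.1 CPM with VNLG-152R. Every treated library was above every control, and replicate 2, which was the lowest library for most members, was the highest here. NARS2 gave a log2 fold change of 0.19 ± 0.084 (SE, n = 3 per group) at an adjusted p of 0.194 in edgeR, a fold of 1.14 with a 95% interval of 1.01 to 1.30. LARS1, the leucyl-tRNA synthetase that also senses leucine for mTORC1, was at 258, 247 and 237 CPM and at 258, 263 and 262 CPM, a narrow separation, with the highest control and the lowest treated library both at 258 CPM, and a log2 fold change of 0.08 (adjusted p = 0.601 in edgeR). The LARS1 value was 0.05 without control replicate 3 and 0.03 after the correction for transcript length. The only other members with a positive value were AARS1 (0.03), CARS2 (0.10), TARS2 (0.02) and RARS2 (0.005), and the groups of each overlapped.

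In 12 of the 32 members the groups did not overlap, against 28.5% of all tested genes. Treated libraries were below controls in 10 of them (13.4% of all tested genes) and above in 2 (15.1%). The 10 were FARSA, GARS1, HARS1, KARS1, SARS1, TARS1 and YARS1 among cytosolic members and FARS2, HARS2 and MARS2 among mitochondrial ones. HARS1 and HARS2 are the cytosolic and mitochondrial histidyl-tRNA synthetases whose listed RefSeq starts flank the printed stretch. They had nearly the same value, -0.16 and -0.15, with adjusted p = 0.261 and 0.285 in edgeR. HARS1 was at 216, 222 and 230 CPM against 209.6, 195 and 195 CPM, and HARS2 at 58.1, 59.5 and 58.6 CPM against 55.9, 50.3 and 52.3 CPM. Antisense genes, each other included, lie over 8.4% and 11.7% of their exon bases, and the strand setting of the counting is not given in the sources used here.

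**Figure D2:**
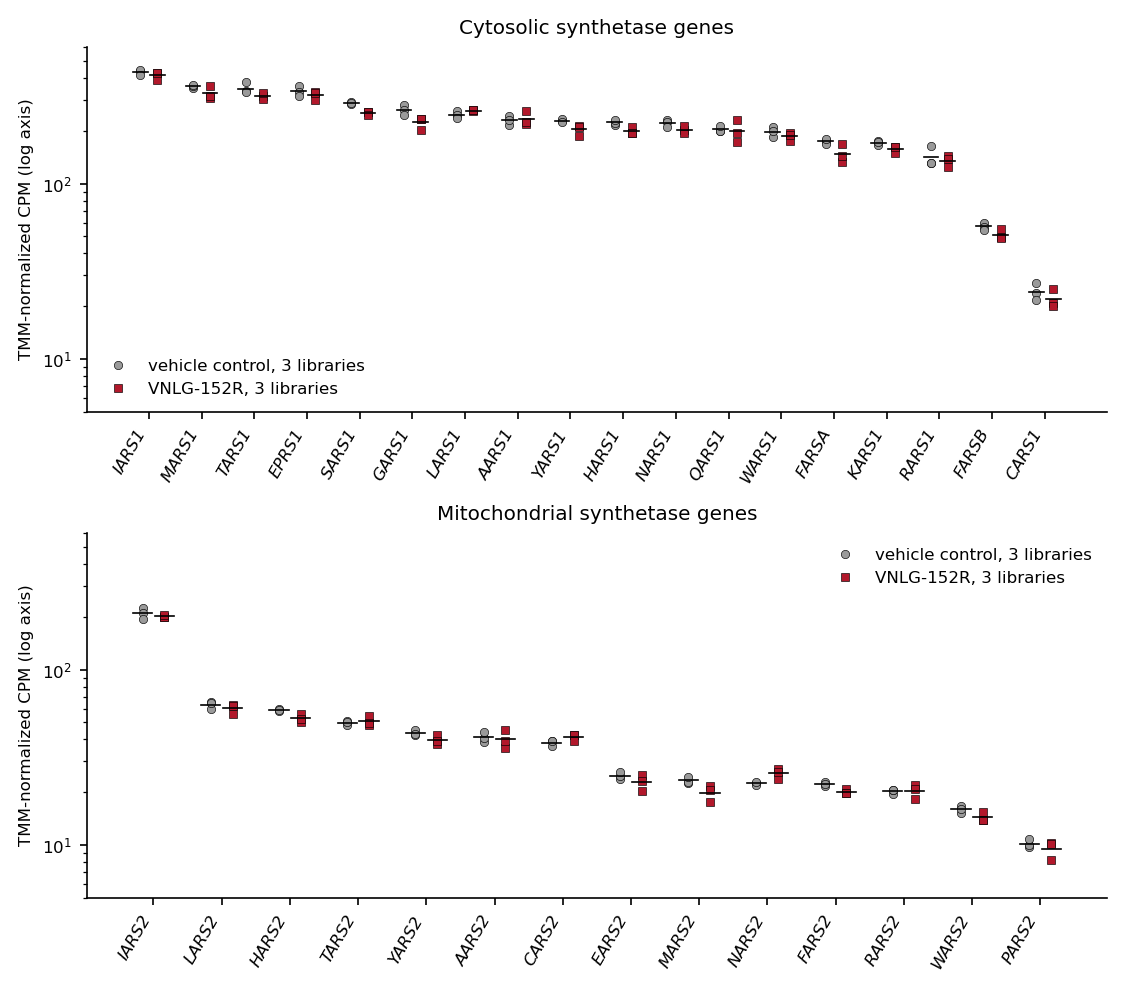
TMM-normalized CPM (log axis) of each tested synthetase gene in the 3 vehicle control libraries (grey circles) and the 3 VNLG-152R libraries (red squares), with short lines at the group means, cytosolic genes above and mitochondrial genes below. IARS1 is the highest gene at a control mean of 435 CPM and PARS2 the lowest at 10.2 CPM, and the groups lie close together in every gene.

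The cytosolic and mitochondrial enzymes differed far more in level than in change. Per kilobase of transcript, the median over cytosolic members was 71.8 CPM in the controls and 68.8 CPM with VNLG-152R, and over mitochondrial members 12.2 and 11.5 CPM. SARS1 was the highest at 156 CPM per kilobase in the controls, followed by MARS1 at 123, GARS1 at 99.8 and FARSA at 96.1. Of the 18 cytosolic members 16 were at 51.9 or more, and of the 14 mitochondrial members 13 were at 23.4 or less. The exceptions were IARS2, the mitochondrial isoleucyl-tRNA synthetase, at 58.9 CPM per kilobase, and FARSB and CARS1, at 16.9 and 9.04. PARS2, for mitochondrial proline, was the lowest of all at 4.33, and WARS2, for mitochondrial tryptophan, was next at 5.70. FARSA and FARSB form a tetramer with equal numbers of each subunit, and their levels per kilobase, 96.1 and 16.9 in the controls, were far apart.

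Matched enzymes for the same amino acid gave 15 pairs of a cytosolic and a mitochondrial gene, with EPRS1 paired to both EARS2 and PARS2 and FARS2 paired to both cytosolic subunits. The cytosolic gene was the higher per kilobase in every library in 14 of the 15. The mean control ratio ran from 15.9 for MARS1 over MARS2 down to 1.29 for FARSB over FARS2, and only CARS1 over CARS2 was under 1, at 0.44. CARS1 over CARS2 was 0.49, 0.46 and 0.39 in the controls and 0.35, 0.33 and 0.45 with VNLG-152R, and the groups overlapped.

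The NARS1 to NARS2 ratio was the only 1 of the 15 whose groups did not overlap, a smaller share than the 28.5% of single genes over all tested, so the count itself does not set the pairs apart. It was 8.24, 8.25 and 7.51 in the controls and 6.87, 5.84 and 6.61 with VNLG-152R, a log2 change of -0.32. Its cytosolic member had a log2 fold change of -0.12 and its mitochondrial member 0.19. Over the other pairs the log2 change of the ratio ran from -0.24 for CARS1 over CARS2 to 0.15 for LARS1 over LARS2, and the median of the 15 was -0.008. The smallest p an exact two-sided permutation test of 3 against 3 libraries allows is 0.1, so no p is given for the ratios.

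**Figure D3:**
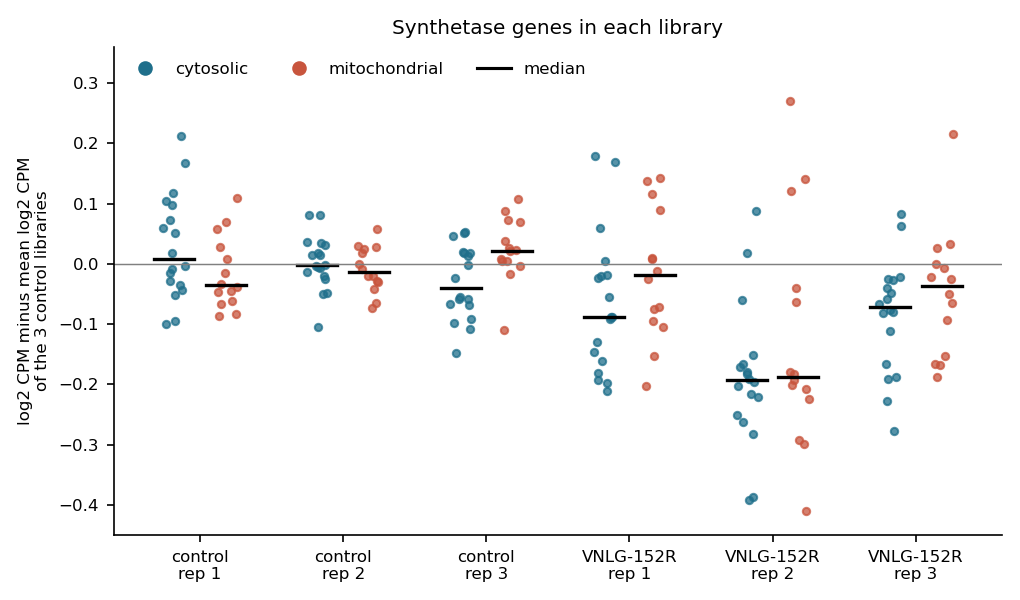
For each library, log2 CPM of every tested synthetase gene minus its mean log2 CPM over the 3 control libraries (points), cytosolic and mitochondrial genes side by side, with the median as a black line. The medians of VNLG-152R replicate 2 are -0.19 in both sets, further below 0 than those of VNLG-152R replicates 1 and 3.

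The lower values did not weigh equally on the 3 treated libraries. Relative to the control mean, the median cytosolic member stood at 0.008, -0.002 and -0.039 in the control libraries and at -0.089, -0.19 and -0.071 with VNLG-152R, on the log2 scale. The median mitochondrial member stood at -0.036, -0.014 and 0.022 in the controls and at -0.019, -0.19 and -0.037 with VNLG-152R. Cytosolic medians of the treated libraries were all below those of the controls, whereas mitochondrial medians of the groups overlapped. VNLG-152R replicate 2 was the lowest of the 6 libraries for 23 of the 32 members. Over all tested genes the medians of the 6 libraries lay between -0.002 and 0.006, and TMM normalization is meant to keep them level.

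The same library also had the largest share of read pairs assigned to no gene, 5.05%, against 2.63% to 3.17% in the controls and 3.36% and 3.52% in the other two treated libraries. The part of this share in the lower values was not tested. Without VNLG-152R replicate 2 the median log2 fold change was -0.09 over cytosolic and -0.05 over mitochondrial members, with 15 of 18 and 9 of 14 negative. The summed level of the cytosolic members was 4068 to 4213 CPM in controls and 3658 to 4012 CPM with VNLG-152R. That of the mitochondrial members was 637 to 652 CPM and 599 to 635 CPM, so that neither pair of ranges overlapped. The mitochondrial gap was narrow, with control replicate 3 at 636.7 CPM and VNLG-152R replicate 1 at 635.1 CPM. IARS2, at a control mean of 210 CPM, was the largest part of that sum, and its own groups overlapped.

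Among cytosolic enzymes, members of the multi-synthetase complex lay nearer to 0 than the others. The complex members EPRS1, IARS1, KARS1, LARS1, MARS1, QARS1 and RARS1 had a median log2 fold change of -0.07, 6 of the 7 values were negative, and the groups of KARS1 alone were separate on the lower side. The other 11 cytosolic members had a median of -0.15 with 10 of 11 negative and 6 of 11 separate on the lower side, against 13.4% of all tested genes, a share that the 1 of 7 in the complex did not clearly exceed. By structural class, the 16 class I enzymes had a median of -0.08 and the 15 class II enzymes -0.14, leaving out EPRS1, which holds both folds. These differences between sets of genes were not tested.

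The scaffold genes of the complex were listed apart from the 34. AIMP2 fell from 52.2, 41.0 and 43.6 CPM in the controls to 35.4, 33.8 and 35.7 CPM with VNLG-152R, and its log2 fold change was -0.38 at an adjusted p of 0.0436 in edgeR. The treated libraries were tight and all below the controls, and control replicate 1 was the highest. Its call was lost in 5 of the 6 fits that left out a library, with an adjusted p of 0.1398 without control replicate 1, 0.118 without control replicate 3, 0.0527, 0.101 and 0.109 without VNLG-152R replicates 1, 2 and 3, and 28.9% of its exon bases lie under the antisense gene EIF2AK1. The AIMP2 call was also lost with unscaled library sizes (adjusted p = 0.0571 in edgeR), after thinning to the shallowest library (0.0536) and after the correction for transcript length (0.0937). AIMP1 was at 70.1, 61.4 and 61.0 CPM and at 50.1, 67.6 and 60.5 CPM (log2 fold change -0.11, adjusted p = 0.592 in edgeR). EEF1E1 was at 11.0, 6.54 and 5.70 CPM and at 5.10, 6.67 and 6.54 CPM (-0.34, adjusted p = 0.358 in edgeR), with control replicate 1 apart from the other 5 libraries. Without that library the EEF1E1 value was -0.002.

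In the list of the ATF4 response and of amino acid supply, more genes fell than rose. Of 33 listed genes 32 were tested and 5 fell, against 1.43% of all tested genes, while 1 rose, against 3.76%. At an unadjusted p under 0.05 there were 9 lower (9.76% of all tested genes) and 5 higher (12.8%), and the median log2 fold change was -0.07. PSAT1, an enzyme of serine synthesis, was at 169.8, 163 and 157 CPM in the controls and at 113, 115 and 119 CPM with VNLG-152R, a clear separation, and its log2 fold change was -0.50 at an adjusted p of 0.00329 in edgeR. CHAC1, which degrades glutathione, fell by 0.68 on the log2 scale, PSPH, the last enzyme of serine synthesis, by 0.42, and JDP2, a partner of ATF factors, by 0.46. MTHFD2, a mitochondrial folate enzyme, fell by 0.37 and is named here after its value was seen, since its p was the largest of the 5. PPP1R15A, which directs dephosphorylation of eIF2α, rose with a log2 fold change of 0.35.

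In this list only the PSAT1 call was kept in every fit that left out a library. CHAC1 was lost without control replicate 3 (adjusted p = 0.0693 in edgeR) and without VNLG-152R replicate 3 (0.0519), and so was PSPH (0.104 and 0.0503). JDP2 was lost without control replicate 2 (0.0752), control replicate 3 (0.121), VNLG-152R replicate 2 (0.0714) and VNLG-152R replicate 3 (0.0953). PPP1R15A was lost in 5 of the 6 such fits, with 0.192 as the largest adjusted p, and MTHFD2 in all 6, with 0.126. MTHFD2 also has 33.2% of its exon bases under antisense genes. ATF4 itself, named after its value was seen, was at 303, 313 and 314 CPM and at 272, 253 and 276 CPM. Every treated library was below every control, and the ATF4 log2 fold change was -0.21 at an adjusted p of 0.136 in edgeR. SLC7A11, SLC7A5, VLDLR and ATF3, also named after their values were seen, had every treated library above every control. Their log2 fold changes were 0.35, 0.34, 0.23 and 0.26, at adjusted p = 0.0541, 0.114, 0.144 and 0.224 in edgeR. Over the 32 tested genes of the list, treated libraries were below controls in 9 (13.4% of all tested genes) and above in 5 (15.1%).

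Other lists of the tRNA and translation apparatus had negative medians too, and no test compared them with the synthetases. Of 19 genes that process or modify mitochondrial tRNAs 0 were called by edgeR, with 0 at an unadjusted p under 0.05, while 17 of 19 log2 fold changes were negative, the median was -0.14 and the range -0.21 to 0.20. Of 10 mitochondrial translation factors 0 were called, with 1 at an unadjusted p under 0.05, and the median was -0.08 with a range of -0.26 to 0.58. Of 11 genes for cytosolic elongation and tRNA delivery 10 were tested and 0 called, with 2 at an unadjusted p under 0.05, and the median was -0.13 with a range of -0.49 to 0.07. Of 7 genes for tRNA editing and selenocysteine 6 were tested and 0 called, with 2 at an unadjusted p under 0.05, and the median was -0.14 with a range of -0.27 to 0.56. The last 3 ranges reached further from 0 than that of the synthetases, -0.24 to 0.19. Their furthest values, named for this limit, were TSFM at 6 to 30 counts, AARSD1 at 30 to 110 counts, and EEF1B2. The standard errors of these were 0.40, 0.30 and 0.27, beside a median of 0.085 over the synthetases. For EEF1B2, control replicate 1 was at 13.5 CPM and the other libraries at 4.66 to 7.19 CPM. The median over all 17084 tested genes was -0.002, a value that TMM normalization is meant to keep small.

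**Figure D4:**
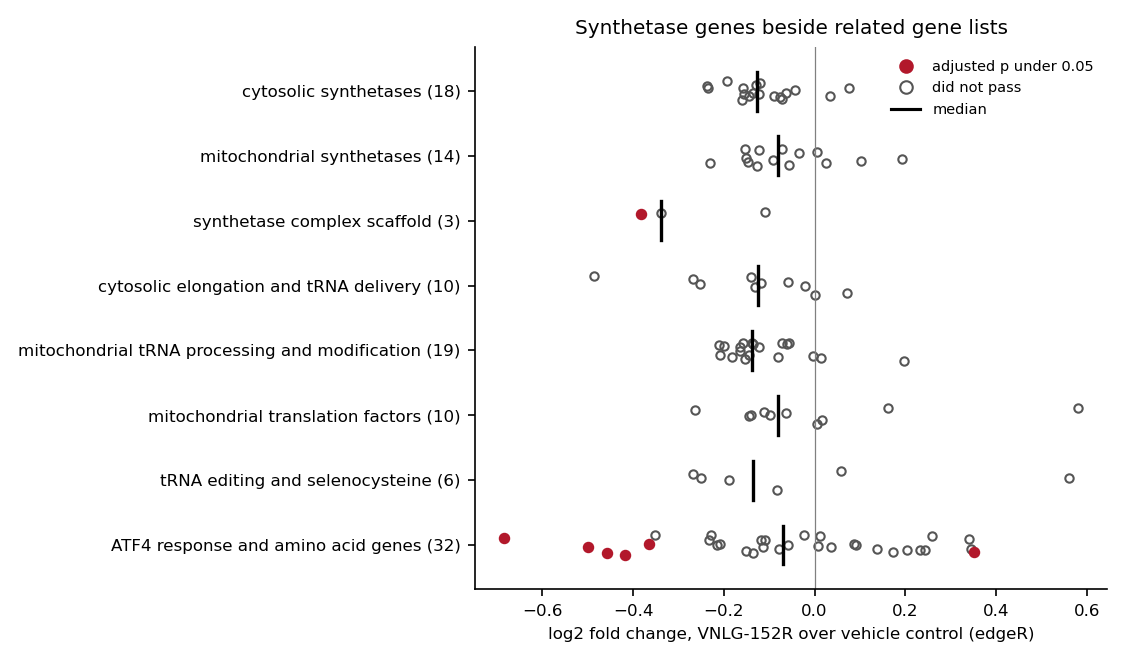
Log2 fold change (edgeR) of every tested gene in the 2 synthetase sets and 6 related lists, with the number of genes in parentheses, filled points for an adjusted p under 0.05 and a black line at each median. The filled points are AIMP2 among scaffold genes and 6 genes of the ATF4 list, 5 on the lower side and 1 on the higher side.

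Over all genes the log2 fold change rose with transcript length, and the members were read against this. Spearman's rho was 0.21 across 16731 tested genes with a length, and over 10 equal bins of length the median ran from -0.09 in the second shortest bin to 0.14 in the longest. Across the 32 members rho was 0.25, across the 18 cytosolic members 0.54, and across the 14 mitochondrial members -0.07. Genes share their libraries and are not independent, so these are descriptions without a p. FARSA and SARS1, at 1814 and 1852 bases, were among the shortest cytosolic members, and LARS1, at 4766 bases, was among the longest. After correction of each library for its trend on length, the medians were -0.11 for cytosolic and -0.07 for mitochondrial members, and 0 members were called by edgeR, with 3 at an unadjusted p under 0.05.

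**Figure D5:**
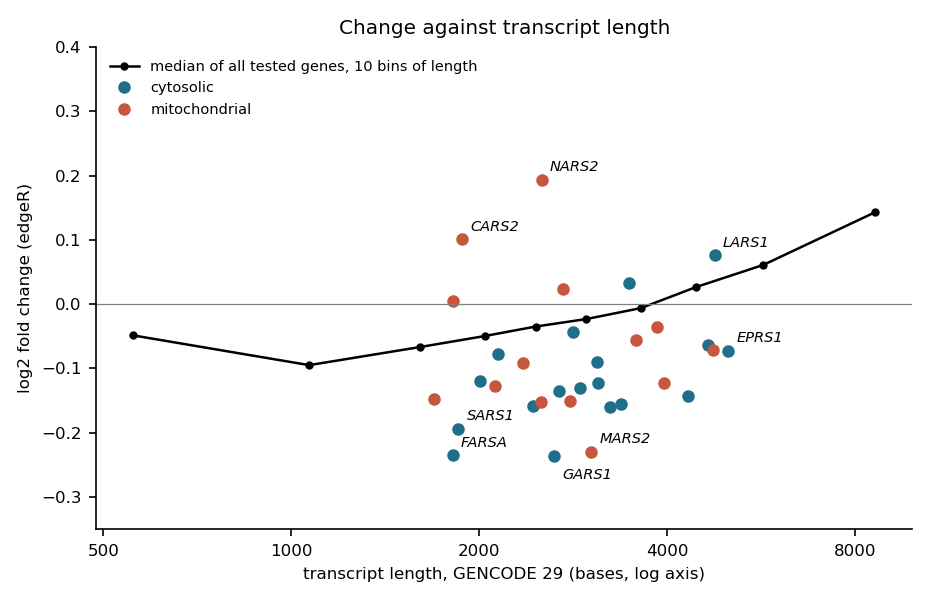
Log2 fold change (edgeR) of each tested synthetase gene against the length of its transcript (log axis), with the median of all tested genes in 10 equal bins of length as a black line. Most members lie below the line, and NARS2, CARS2 and LARS1 are among those above it.

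VARS1 and SARS2 had too few counts to be tested. VARS1, the cytosolic valyl-tRNA synthetase, had 5, 11 and 9 counts in the controls and 9, 6 and 11 counts with VNLG-152R. It lies on chromosome 6 from 31777518 to 31795953, and of the 55 other protein-coding genes within 300000 bases on either side 54 had under 100 counts in every library (98.2%), against 42.5% of all 19877 protein-coding genes. SARS2, the mitochondrial seryl-tRNA synthetase, had 0 counts in all 6 libraries, which allows up to 3 counts in each, for counting error only. Of its exon bases 46.2% are shared with ENSG00000269547, a gene of the same strand, and MRPS12, an antisense gene, covers 10.8%. These counts cannot be read as absence of the transcripts. SESN2 of the ATF4 list and the elongation factor EEF1G, named for their counts, were also at 0 in every library. Of the exon bases of EEF1G 99.9% are shared with ENSG00000255508, a gene of the same strand, and of those of SESN2 0%. ASNS of the ATF4 list, named for the same limit, has 44.6% so shared and was tested at 20 to 40 counts.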

How the data were processed

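RNA from MDA-MB-231 cells was sequenced by the authors from both ends as strand-specific polyA libraries, and the authors deposited unnormalized counts of reads for every Ensembl gene, in 1 table for each of 6 samples. Their processing notes name HISAT, HTSeq, DESeq and GRCh38. The sources used here give no versions, no annotation release and no strand setting for the counting. Pairs in no gene, ambiguous pairs (4.81% to 5.16%) and pairs not aligned uniquely (7.81% to 8.12%) were left out of the totals. Of 61552 identifiers 61399 matched a gene record. Samples were grouped by their labels into vehicle control and VNLG-152R.

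Counts were tested with edgeR 4.0.16 under R 4.3.3, by its quasi-likelihood method (TMM, filterByExpr, Benjamini-Hochberg over all 17084 tested genes, threshold 0.05). Each log2 fold change divided by the square root of its F statistic gave the standard error, and the 95% interval uses the t distribution with 12.43 degrees of freedom. Coordinates, transcript lengths and exon overlaps are from GENCODE 29 on GRCh38. Promoter windows are from RefSeq. The fits were tested on simulated counts with known changes.

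As alternatives, the analysis was repeated with DESeq2 1.42.0, limma-voom (limma 3.58.1), RLE size factors, unscaled library sizes, no filter, a filter at a mean of 1 CPM, replicate number as a block, each library left out, a lowess correction for length (span 0.3) and thinning to the shallowest library. Every member is named, WARS1 (log2 fold change -0.09) and YARS2 (-0.13) only here. From other lists, the genes that passed are named, at most 4 per direction by smallest p, with all scaffold genes, and further genes are marked where they appear. The members and lists were chosen with earlier results of these data known.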

Additional observations from a re-analysis of the deposited data

Results flagged for a closer look

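Read pairs assigned to no gene, which enter no comparison above, made up 3.52%, 5.05% and 3.36% of pairs in VNLG-152R replicates 1, 2 and 3, above the highest control library at 3.17%. Groups of 3 libraries are too small for the check on single outlying samples.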

How the results depend on the processing

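The number of members called was 0 in every fit except those that left out a library, where it ran from 0 to 1, both over all members and over the cytosolic ones (FARSA, without VNLG-152R replicate 1). The medians of both sets stayed negative in every fit, from -0.14 to -0.09 over cytosolic and from -0.12 to -0.05 over mitochondrial members when a library was left out. Over all genes the 887 calls (642 higher, 245 lower) became 1539 without the filter (1056 higher, 483 lower), 1490 with DESeq2 (961 higher, 529 lower) and 397 with the replicate block (310 higher, 87 lower), and 264 to 948 when a library was left out. The causes were not tested. With the replicate block no member had an unadjusted p under 0.05 in edgeR. Same-numbered libraries deviated in opposite directions (r = -0.51, -0.35 and -0.39 across 9311 genes). The deviations are from means of 3 libraries, so these r cannot show whether same-numbered samples share more than a number. The block also ended the calls of AIMP2, VIM, PSPH, MTHFD2, JDP2 and PPP1R15A (adjusted p from 0.0684 to 0.155 in edgeR), and VIM was lost with a mean of at least 1 CPM (0.0528) and after the length correction (0.0631). Of 480 member values under the alternatives 468 kept their sign and side of the threshold, 1 passed it (FARSA) and 11 changed sign, each on leaving out a library: AARS1 (-0.013 and -0.042), RARS2 (-0.018, -0.055 and -0.0095), TARS2 (-0.021), QARS1 (0.051), RARS1 (0.037), AARS2 (0.021 and 0.040) and PARS2 (0.0040). AIMP1 changed sign too (0.0013 without VNLG-152R replicate 1). The leave-one-out ranges were -0.042 to 0.080 for AARS1, -0.16 to 0.051 for QARS1, -0.13 to 0.037 for RARS1, -0.13 to 0.040 for AARS2, -0.14 to 0.0040 for PARS2, -0.055 to 0.080 for RARS2, -0.021 to 0.057 for TARS2 and -0.21 to 0.0013 for AIMP1. VARS1 and SARS2 had too few counts for any statement on change.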
